A study of Mus musculus with 4 samples.

Results

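Peroxisomes are small organelles of the hepatocyte, and the genes described here build them and supply their lipid-oxidizing enzymes. The set was listed by gene name and holds peroxins, the transporters that bring fatty acyl groups in, the enzymes of peroxisomal beta- and alpha-oxidation, carnitine acyltransferases, CoA diphosphatases and the enzymes that begin ether lipid synthesis. It has 38 genes. Of these, 37 had a probe on the array, out of 20886 genes with a named probe. Far1, which makes the fatty alcohols of ether lipids, had no probe whose accession matched. The 37 genes were read by 43 probes. Liver RNA of male mice was hybridised to 1-colour Agilent 44K mouse arrays, with 1 array for each of 4 groups: catalase knockouts given a high-fat or a normal diet, and wild types given a high-fat or a normal diet. The high-fat diet supplied 60.3% of calories as fat, against 18% in the normal diet, and feeding lasted 11 weeks, from 29 to 40 weeks of age. The labels used here name no strain and no other allele or agent, and whether a sample was 1 animal or a pool is not given. The knockout is labelled only as lacking catalase, with no tissue-restricted driver named. With 1 array per group there is no replicate check, differences between 2 arrays carry no p-value, and each of them is a difference between these samples only.

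As background, peroxisomes take in folded enzymes from the cytosol through import receptors, and shorten very long, branched and dicarboxylic fatty acids that mitochondria handle poorly. The acyl-CoA oxidases of this pathway pass electrons straight to oxygen and so make hydrogen peroxide, which catalase, the abundant peroxisomal enzyme encoded by Cat, breaks down. In rodent liver many genes of peroxisomal beta-oxidation, and Pex11a, are known targets of the fatty acid-activated receptor PPARalpha.

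Levels are given as log2 of the scanner's processed signal divided by the array's 75th percentile over 39429 probes, so that 0 is the signal of a probe at that percentile and a difference of 1 is 2-fold. They are levels of 1 probe and are compared between arrays, never between genes. The error after ± is the scanner's own estimate for a difference between 2 arrays. It is not a measured spread of spots and does not cover the spread between animals. For bright probes it was nearly the same, 0.20, so being within the scanner error is there close to a fixed cutoff. Pex11a had an error of 0.20, although the SD of its 10 spots was 0.03 to 0.05 on an array. Between 23760 and 25184 probes were well above background on an array, and no probe was saturated. The Cat probe stood at 0.95 on the knockout high-fat array and 1.13 on the knockout normal array, against 4.75 on the wild-type high-fat array and 4.89 on the wild-type normal array. Knockout was lower than wild type by 3.81 ± 0.20 on high-fat diet and by 3.76 ± 0.20 on normal diet, as the labels say. Hepatocyte markers fitted the labelled tissue: all 9 with a probe were well above background on every array. Their summed signal, in multiples of the 75th percentile, was 2214 on the knockout high-fat array, 2638 on the knockout normal array, 2705 on the high-fat wild-type array and 2878 on the normal-diet wild-type array. The knockout high-fat array stood apart in some other cell types and not in all. Its 6 endothelial markers summed to 36.3, against 33.3 to 35.5 on the other arrays. Its 11 macrophage markers summed to 89.4, against 33.3 on the knockout normal array, 48.1 on the high-fat wild-type array and 39.7 on the normal-diet wild-type array, and its 8 stellate cell and matrix markers to 12.4, against 3.70, 5.94 and 4.57 on those arrays. In a whole-liver sample, fewer cells of a type and less RNA per cell cannot be told apart. The part of these markers in the results below was not tested.

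Most of the peroxisomal genes differed little between the 4 livers, and those that spanned most were Abcd2, Pex11a, Crat and Acaa1b, lowest in the wild-type liver on normal diet, and Nudt7 and Hacl1, highest in it. Of 37 genes with a probe, 36 were well above background on all 4 arrays, and Abcd2 was so on 3. Over those 36, the median span between the lowest and the highest array was 0.33 on the log2 scale, against 0.36 over the 13551 genes well above background on all arrays. The span stayed under 1.5-fold for 30 of the 36 genes (83.3%), against 74.1% of all genes, and reached 2-fold for 3 (8.33%), against 9.32% of all genes. The lowest array was knockout high-fat for 17 of the 36 genes and wild-type normal for 12. No such count was made over all genes, so these numbers have no share to stand against. The median of all genes was also below 0 for the knockout high-fat array against each other array. It was -0.07 against knockout normal, -0.04 against wild-type high-fat and -0.07 against wild-type normal. The directions depended on the scaling, as given below.

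**Figure D1:**
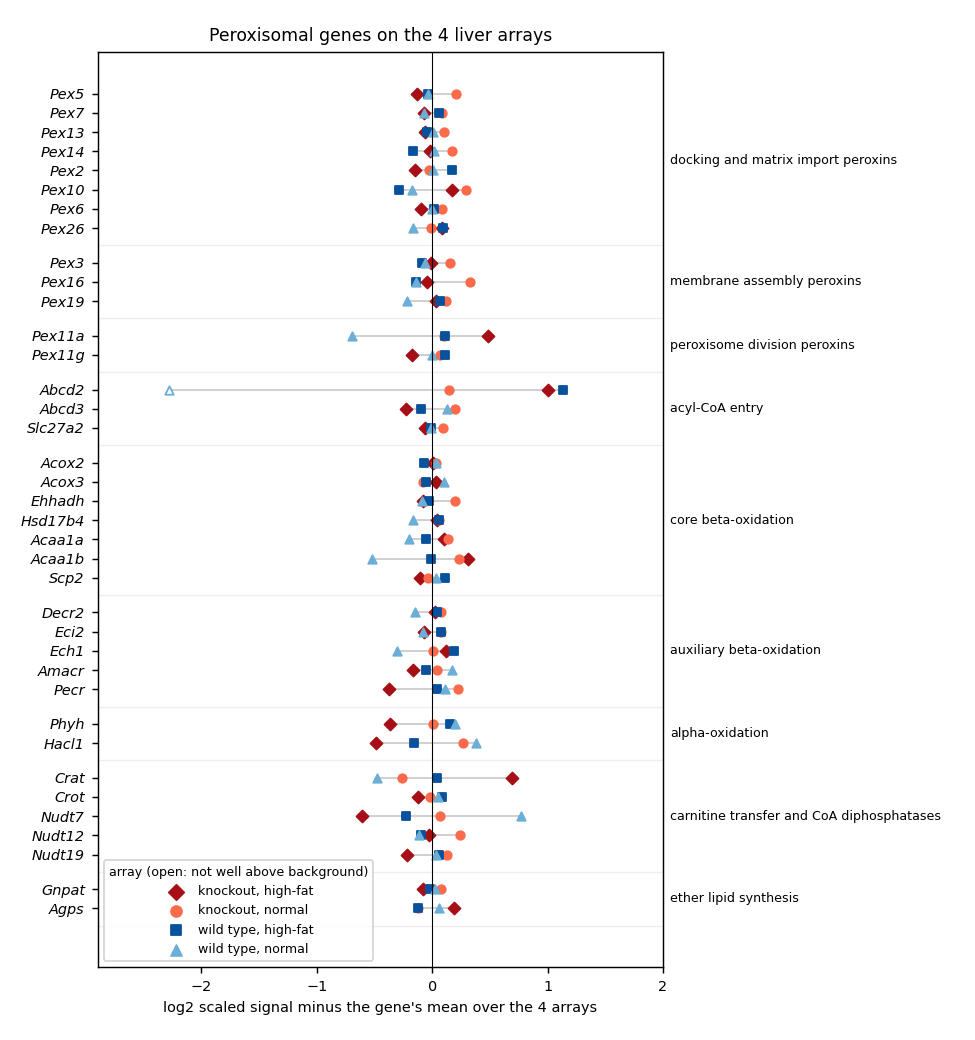
Each row is 1 of 37 peroxisomal genes, grouped by role, and each symbol is 1 array; the x axis is the log2 scaled signal minus the gene's own mean over the 4 arrays, and an open symbol was not well above background. Most rows are narrow, while Abcd2, Pex11a, Acaa1b and Crat have wild-type normal as their lowest array and Nudt7 and Hacl1 have it as their highest.

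The diet comparisons ask how peroxisomal genes respond to fat with and without catalase. A gene is said to have risen or fallen when the difference was 2-fold or more with the probe well above background on both arrays, or when a lower bound reached 2-fold with the probe well above background on 1. In the knockout no peroxisomal gene rose or fell, where 4.22% of 14905 genes rose and 1.64% fell. At the lower size of 1.5-fold, Crat and Abcd2 were higher, 2 of 37 against 9.52% of all genes, and Hacl1, Nudt7 and Pecr were lower, 3 of 37 against 5.68%. After quantile normalization these 3 genes fell short of 1.5-fold (Hacl1 -0.53, Nudt7 -0.45, Pecr -0.35) and Pex11a passed it (0.64), and with the normexp background correction Abcd2 fell short (0.41). In wild type Abcd2 rose, 1 of 37, and no gene fell, where 1.78% of 14636 genes rose and 2.31% fell. At 1.5-fold, Abcd2 and Pex11a were higher, 2 of 37 against 4.45% of all genes, and Nudt7 was lower, 1 of 37 against 6.51%. The median difference was -0.15 in the knockout, with 8 genes above 0 and 29 below, and 0.02 in wild type, with 20 above 0 and 16 below. The same medians over all genes were -0.07 and -0.02, and 39.9% and 45.7% of all genes were above 0. The directions of the peroxisomal genes depended on the scaling. After quantile normalization 18 were above 0 and 19 below in the knockout, where 44.9% of all genes were above 0. Under scaling to the median 27 were above 0 and 9 below in wild type, where 62.1% of all genes were above 0. Differences within the scanner error numbered 21 of 37 (56.8%) in the knockout, against 53.0% of all genes, and 25 of 36 (69.4%) in wild type, against 62.2%.

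The genotype comparisons ask whether the other genes of the organelle differ where catalase is missing. On high-fat diet no peroxisomal gene rose or fell between knockout and wild type, where 2.51% of 14844 genes rose and 1.59% fell. At 1.5-fold Crat was higher, 1 of 37 against 7.34% of all genes, and no gene was lower, against 4.36%. On normal diet Abcd2 rose, 1 of 37, and no gene fell, where 1.4% of 14702 genes rose and 2.5% fell. At 1.5-fold Abcd2, Pex11a and Acaa1b were higher, 3 of 37 against 3.89% of all genes, and Nudt7 was lower, 1 of 37 against 6.65%. The median difference was -0.06 on high-fat diet, with 12 genes above 0 and 25 below, a split that turned to 24 above and 13 below after quantile normalization and 25 above and 12 below after cyclic loess. On normal diet it was 0.13, with 26 above 0 and 10 below, and 25 to 32 of 36 were above 0 under the other settings tried. The medians over all genes were -0.04 on high-fat diet and -0.01 on normal diet, with 43.1% and 48.1% of all genes above 0. Those shares were 49.3% and 54.9% after quantile normalization, and median scaling put 70.9% of all genes above 0 on normal diet.

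The comparison with the most peroxisomal genes past 2-fold was between the knockout high-fat liver and the wild-type normal liver, which differ in both factors. Here Abcd2, Pex11a and Crat rose, 3 of 37, and Nudt7 fell, 1 of 37, where 4.04% of 15091 genes rose and 3.81% fell. Acaa1b joined the higher genes at 1.5-fold, 4 of 37 against 9.79% of all genes, and Hacl1 the lower ones, 2 of 37 against 9.83%. After quantile normalization Acaa1a (0.62) and Ech1 (0.66) also passed 1.5-fold, and so they did after cyclic loess (0.60 and 0.64). The median over 36 genes was -0.03, against -0.07 over all genes. Of the 36, 16 were above 0 and 20 below, where 41.4% of all genes were above 0. The split turned to 26 above and 10 below after quantile normalization (50.4% of all genes above) and 28 above and 8 below after cyclic loess (52.8%). This comparison shares its arrays with those above, so its values stand beside theirs and are not a second observation.

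**Figure D2:**
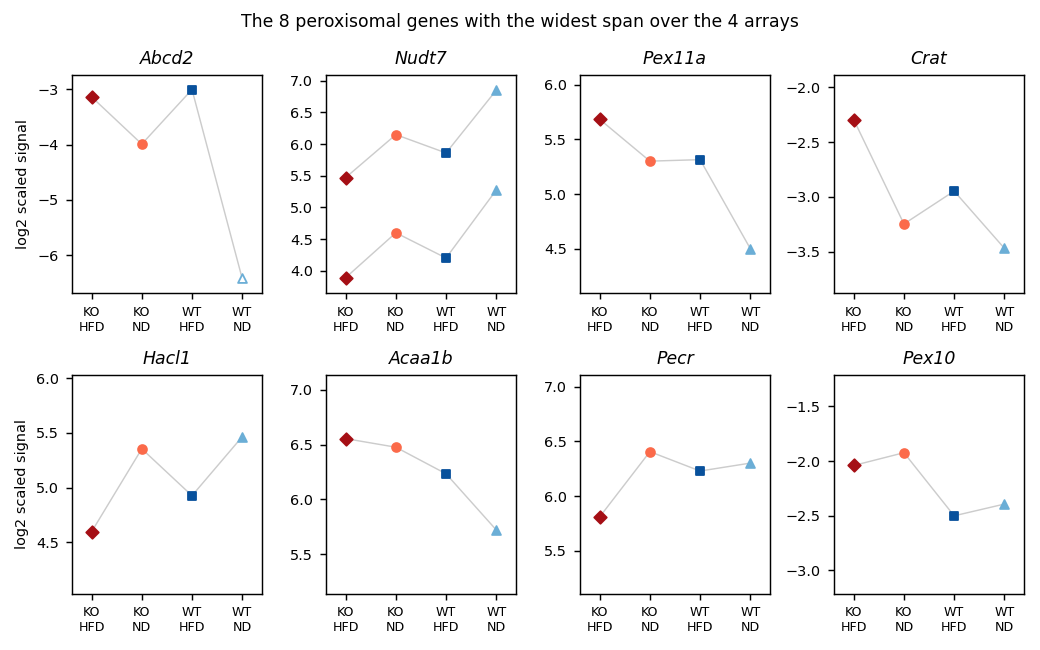
The 8 peroxisomal genes with the widest span are shown by array, knockout (KO) left of wild type (WT) and high-fat diet (HFD) left of normal diet (ND); the y axis is the log2 scaled signal, each symbol is 1 array, lines only join the values of 1 probe, an open symbol was not well above background, and panel scales differ. Nudt7 has 2 probes, and on both the wild-type normal array is the highest and the knockout high-fat array the lowest.

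Import of matrix enzymes starts with Pex5 and Pex7, the receptors for carboxy-terminal and amino-terminal targeting signals, which dock at Pex13 and Pex14. Pex2 and Pex10 are ubiquitin ligase subunits that mark the receptor for recycling, and Pex6, an ATPase held at the membrane by Pex26, pulls it out. By the brightest probe of each, none of these 8 genes reached 1.5-fold in any comparison. Their differences ran from -0.34 to 0.09 for diet in the knockout, from -0.18 to 0.26 for diet in wild type, from -0.32 to 0.46 for genotype on high-fat diet and from -0.04 to 0.47 for genotype on normal diet. Pex10 gave both upper ends for genotype. Its levels were -2.04 on the knockout high-fat array and -1.92 on the knockout normal array, against -2.50 on the wild-type high-fat array and -2.39 on the wild-type normal array. Both knockout values lay above both wild-type values, by 0.46 ± 0.21 on high-fat diet and 0.47 ± 0.21 on normal diet. Pex5 stood at 2.33 and 2.67 on the knockout high-fat and normal arrays, against 2.44 on each wild-type array, and its diet difference in the knockout was -0.34 ± 0.20. For Pex13 the dimmer of its 2 probes read 0.69 for diet in wild type and -0.70 for genotype on high-fat diet, where the brighter read -0.05 and -0.02, so the probes of this docking peroxin disagreed.

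Pex3, Pex16 and Pex19 insert membrane proteins and so start new peroxisomes. All 3 were above 0 between knockout and wild type on normal diet under every setting, with differences of 0.22, 0.47 and 0.34 (± 0.20 each). Pex16 had the widest: 3.31 on the knockout high-fat array and 3.68 on the knockout normal array, against 3.21 on both wild-type arrays. The knockout normal array was the high one, and on high-fat diet the genotype difference of Pex16 was 0.10 ± 0.20.

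Pex11a and Pex11g belong to the family that elongates the peroxisomal membrane before it divides. Pex11a is on chromosome 7. It stood at 5.68 on the knockout high-fat array, 5.30 on the knockout normal array, 5.32 on the high-fat wild-type array and 4.50 on the normal-diet wild-type array. The liver with neither fat nor catalase loss was the lowest, the livers with 1 of them were close to each other, and the liver with both was the highest. The diet difference was 0.38 ± 0.20 in the knockout, or 0.64 after quantile normalization, and 0.81 ± 0.20 in wild type, and the genotype difference was 0.37 ± 0.20 on high-fat diet and 0.80 ± 0.20 on normal diet. Against the wild-type normal liver, Pex11a rose by 1.18 ± 0.20 in the knockout high-fat liver and by 1.18 to 1.44 under the other settings. It was read by 10 spots per array. Its proximal promoter is shown with those of Acaa1b, the copy Acaa1a and Nudt7. Pex11a and Acaa1b were both lowest on the wild-type normal array and highest on the knockout high-fat array, while Nudt7 had these ends reversed. Crat had the same ends as Pex11a, and Hacl1, Phyh and Amacr the same as Nudt7, but their promoters are not shown. Acaa1a was lowest on the wild-type normal array and highest on the knockout normal array. Promoters here and below are 300-base windows around the annotated start, from RefSeq on assembly GRCm38.p6, 5′ to 3′ on the gene's strand, and capitals mark CCAAT on either strand, a motif chosen after the sequences were seen. The Pex11a window, chr7:79743082-79743381 on the minus strand, has no such match.
Pex11a: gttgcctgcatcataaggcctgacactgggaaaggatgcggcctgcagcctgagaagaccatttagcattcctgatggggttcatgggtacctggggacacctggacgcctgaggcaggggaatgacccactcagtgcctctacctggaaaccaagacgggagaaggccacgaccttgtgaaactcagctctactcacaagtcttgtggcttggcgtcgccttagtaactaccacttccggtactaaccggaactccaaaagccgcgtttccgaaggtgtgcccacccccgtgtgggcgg

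Pex11g, by contrast, ran from 4.34 on the knockout high-fat array to 4.63 on the wild-type high-fat array, with differences between -0.29 and 0.11 within a genotype or a diet.

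Acyl groups enter through ABC transporters. Abcd2 carries very long-chain and polyunsaturated acyl-CoA and is a minor transporter in liver, on mouse chromosome 15. Its signal was dim: 131 on the knockout high-fat array, 63.1 on the knockout normal array, 127 on the high-fat wild-type array and 11.7 on the normal-diet wild-type array, where it was not well above background. The wild-type normal liver was thus the only one in which Abcd2 was not detected above background, and the high-fat livers of the genotypes differed by less than the scanner error. Against the lowest signal that counts as well above background on that array, Abcd2 was at least 5.83-fold higher on high-fat than on normal diet in wild type, at least 2.94-fold higher in knockout than in wild type on normal diet, and at least 5.32-fold higher in the knockout high-fat liver than in the wild-type normal liver. In the knockout its diet difference was 0.85 ± 0.24, and on high-fat diet its genotype difference was -0.13 ± 0.22. With a normexp background correction the genotype bound on normal diet and the bound between the knockout high-fat and wild-type normal livers fell below 2-fold. Abcd3, the main acyl-CoA transporter of liver peroxisomes, stood at 6.15 and 6.58 on the knockout high-fat and normal arrays, against 6.28 and 6.50 on the wild-type high-fat and normal arrays, lower on high-fat diet by 0.42 ± 0.20 in the knockout and by 0.23 ± 0.20 in wild type. The knockout difference of Abcd3 became -0.19 after quantile normalization and -0.18 after cyclic loess, within the scanner error. Slc27a2, a very long-chain acyl-CoA synthetase, held between 6.69 and 6.84 on all 4 arrays.

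The core of beta-oxidation is made of the oxidases Acox2 and Acox3, which act on branched-chain substrates, the bifunctional enzymes Ehhadh and Hsd17b4, and the thiolases Acaa1a, Acaa1b and Scp2. By the brightest probe of each, no gene of the 7 rose or fell, and Acaa1b alone passed 1.5-fold. Acaa1b stood at 6.56 on the knockout high-fat array, 6.48 on the knockout normal array, 6.23 on the high-fat wild-type array and 5.72 on the normal-diet wild-type array. As for Pex11a, the wild-type normal liver was the lowest and the knockout high-fat liver the highest, although the knockout arrays lay within the scanner error of each other. Its diet difference was 0.08 ± 0.20 in the knockout and 0.51 ± 0.20 in wild type, and its genotype difference 0.32 ± 0.20 on high-fat and 0.76 ± 0.20 on normal diet. Between the knockout high-fat and wild-type normal livers it was 0.83 ± 0.20, and it passed 2-fold after quantile normalization (1.13) and cyclic loess (1.11). Acaa1a, the other copy of this thiolase, also on chromosome 9, stood at 6.90 and 6.94 on the knockout high-fat and normal arrays, against 6.75 and 6.60 on the wild-type high-fat and normal arrays, the same order of genotypes with smaller steps. The 2 genes are close copies, and whether their probes tell them apart was not tested. The Acaa1b window is chr9:119157044-119157343 on the minus strand and the Acaa1a window chr9:119341044-119341343 on the plus strand, and both carry CCAAT on 1 strand or the other.
Acaa1b: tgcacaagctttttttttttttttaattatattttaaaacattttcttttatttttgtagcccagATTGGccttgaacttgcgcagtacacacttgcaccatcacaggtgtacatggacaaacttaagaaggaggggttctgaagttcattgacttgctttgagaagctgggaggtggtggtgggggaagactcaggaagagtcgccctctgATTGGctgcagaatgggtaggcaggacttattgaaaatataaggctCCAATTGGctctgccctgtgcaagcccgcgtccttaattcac
Acaa1a: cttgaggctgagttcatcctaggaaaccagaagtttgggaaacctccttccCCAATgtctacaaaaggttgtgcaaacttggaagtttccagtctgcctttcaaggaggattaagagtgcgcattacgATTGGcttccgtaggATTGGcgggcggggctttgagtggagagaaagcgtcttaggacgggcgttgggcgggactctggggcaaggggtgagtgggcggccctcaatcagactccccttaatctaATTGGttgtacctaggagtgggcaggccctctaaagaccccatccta

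Ehhadh, a well-known PPARalpha target, stood at 3.88 and 4.15 on the knockout high-fat and normal arrays, against 3.93 and 3.87 on the wild-type high-fat and normal arrays, with a diet difference of 0.06 ± 0.20 in wild type. Hsd17b4 held between 6.10 and 6.33, Acox2 between 5.52 and 5.63 and Scp2 between 8.17 and 8.39. For Acox3, the probe used gave genotype differences of 0.08 on high-fat and -0.18 on normal diet. The other probe gave -0.65 and -0.58, and so passed 1.5-fold on high-fat diet.

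Most of the auxiliary enzymes prepare unsaturated and branched chains for that cycle. Decr2, Eci2 and Ech1 move or remove double bonds, and Amacr turns the configuration of the methyl branch. Pecr, listed with them, reduces enoyl-CoA and is not such a preparing step. Ech1 stood at 4.76 on the knockout high-fat array, 4.65 on the knockout normal array, 4.83 on the high-fat wild-type array and 4.34 on the normal-diet wild-type array, with a diet difference of 0.11 ± 0.20 in the knockout and 0.50 ± 0.20 in wild type. Pecr was low on the knockout high-fat array alone: 5.81 there, against 6.41 on the knockout normal array, 6.23 on the high-fat wild-type array and 6.30 on the normal-diet wild-type array. Its diet difference of -0.60 ± 0.20 in the knockout became -0.35 after quantile normalization. Decr2, Eci2 and Amacr differed by at most 0.23 in size within a diet or a genotype.

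Alpha-oxidation removes 1 carbon from phytanic acid, which beta-oxidation cannot attack. Phyh, the hydroxylase of its first step, stood at 7.09 on the knockout high-fat array, 7.46 on the knockout normal array, 7.61 on the high-fat wild-type array and 7.66 on the normal-diet wild-type array. Hacl1, the lyase that follows, stood at 4.60, 5.35, 4.93 and 5.46 on those arrays. Both were lowest in the knockout high-fat liver and highest in the wild-type normal liver. For Hacl1 the diet difference was -0.76 ± 0.20 in the knockout and -0.54 ± 0.20 in wild type, and it stayed below 0 in both genotypes under every setting. For Phyh the genotype difference was -0.52 ± 0.20 on high-fat diet, or -0.29 after quantile normalization, and -0.19 ± 0.20 on normal diet. Its diet difference was -0.37 ± 0.20 in the knockout, or -0.09 after quantile normalization, and -0.05 ± 0.20 in wild type.

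Shortened acyl groups leave as carnitine esters made by Crat and Crot, while Nudt7, Nudt12 and Nudt19 are diphosphatases that split CoA or related nucleotides inside the organelle. Nudt7, on chromosome 8, had the widest span, 1.38, of the 36 genes well above background on all 4 arrays. Its brighter probe stood at 5.47 on the knockout high-fat array, 6.15 on the knockout normal array, 5.86 on the high-fat wild-type array and 6.85 on the normal-diet wild-type array. The wild-type normal liver was the highest and the knockout high-fat liver the lowest, the reverse of Pex11a. The diet difference was -0.68 ± 0.20 in the knockout, or -0.45 after quantile normalization, and -0.99 ± 0.20 in wild type, and the genotype difference was -0.39 ± 0.20 on high-fat diet and -0.70 ± 0.20 on normal diet. Against the wild-type normal liver, Nudt7 fell by 1.38 in the knockout high-fat liver, and its other probe gave -1.38 as well. That probe read -0.71 and -1.07 for diet in the knockout and in wild type. The Nudt7 promoter shown is 1 of 2 annotated windows, chr8:114133368-114133667 on the plus strand.
Nudt7: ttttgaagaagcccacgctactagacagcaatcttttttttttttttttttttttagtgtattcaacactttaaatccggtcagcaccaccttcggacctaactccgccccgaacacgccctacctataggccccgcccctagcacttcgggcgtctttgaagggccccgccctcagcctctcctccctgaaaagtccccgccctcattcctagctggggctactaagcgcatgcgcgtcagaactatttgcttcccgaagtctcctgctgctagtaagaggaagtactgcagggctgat

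Crat was dim, with -2.30 on the knockout high-fat array, -3.25 on the knockout normal array, -2.95 on the high-fat wild-type array and -3.47 on the normal-diet wild-type array. Each high-fat value lay above its normal-diet partner, by 0.95 ± 0.22 in the knockout and 0.52 ± 0.24 in wild type, and the knockout high-fat liver was the highest. It rose by 1.17 ± 0.23 between the knockout high-fat and wild-type normal livers, and by 0.73, short of 2-fold, after the normexp correction. Crat also serves mitochondria, so its probe does not report peroxisomes alone. For diet in the knockout 9 of 11 macrophage markers rose by the same rule, where 4.22% of all genes rose. Among them were Marco by 3.74, Itgax by 2.87 and Trem2 by 2.35. The median of the 11 markers was 1.68 there, and 0.37 for diet in wild type. For genotype it was 1.16 on high-fat and -0.26 on normal diet, where Crat differed by 0.65 and 0.22. The part of those cells in the Crat differences was not tested. Crot, which makes carnitine esters of the octanoyl kind, stood between 4.60 and 4.80, and Nudt12 and Nudt19 differed by at most 0.36 in size in any comparison.

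Ether lipid synthesis starts in the peroxisome with Gnpat and Agps. Gnpat held between 2.71 and 2.86. Agps stood at 0.32 and 0.01 on the knockout high-fat and normal arrays, against 0.01 and 0.20 on the wild-type high-fat and normal arrays, so its diet difference was 0.31 ± 0.20 in the knockout and -0.19 ± 0.20 in wild type.

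Setting the diet differences of the genotypes against each other, which use no array in common, 30 of 36 genes had a lower difference in the knockout than in wild type, and 28 to 32 did so under the other settings. The median of that difference of differences was -0.21, against -0.04 over 13551 genes, of which 55.6% were below 0. It was -0.41 with median scaling (all genes -0.24, 24.5% above 0), -0.12 after quantile normalization (-0.03, 45.4%) and -0.10 after cyclic loess (-0.01, 48.5%). None of the 36 genes reached 1.5-fold in it, where 14.6% of all genes did. Their scanner error was exceeded by 16 of 36, against 4754 of 13551 genes. Abcd2, left out of the 36 because of its wild-type normal array, had the largest value, -2.56 ± 0.65 from the measured signals, with diet differences of 0.85 in the knockout and at least 2.54 in wild type. Among the 36 the largest were -0.52 ± 0.29 for Pecr, 0.50 ± 0.29 for Agps, -0.43 ± 0.29 for Acaa1b, -0.43 ± 0.29 for Pex11a and 0.43 ± 0.32 for Crat. Across the 36 genes the diet differences of knockout and wild type had a Pearson correlation of 0.69, against 0.36 across all genes, and the genotype differences of the 2 diets one of 0.58, against 0.19. The Spearman correlation of the diet differences was 0.56, against 0.33. By sign, the diet difference went the same way in both genotypes for 19 of the 36 genes, against 8494 of 13551 genes. These values are across genes of the same arrays, which are not independent replicates. Beside these values stand the markers of the knockout livers: for diet in the knockout the 9 hepatocyte markers had a median difference of -0.28, beside the peroxisomal median of -0.15. Cps1, an enzyme of the urea cycle, fell to 3.93 on the knockout high-fat array, against 5.03 on the knockout normal array, while Hnf4a differed by -0.35 and Serpina1c by -0.29.

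**Figure D3:**
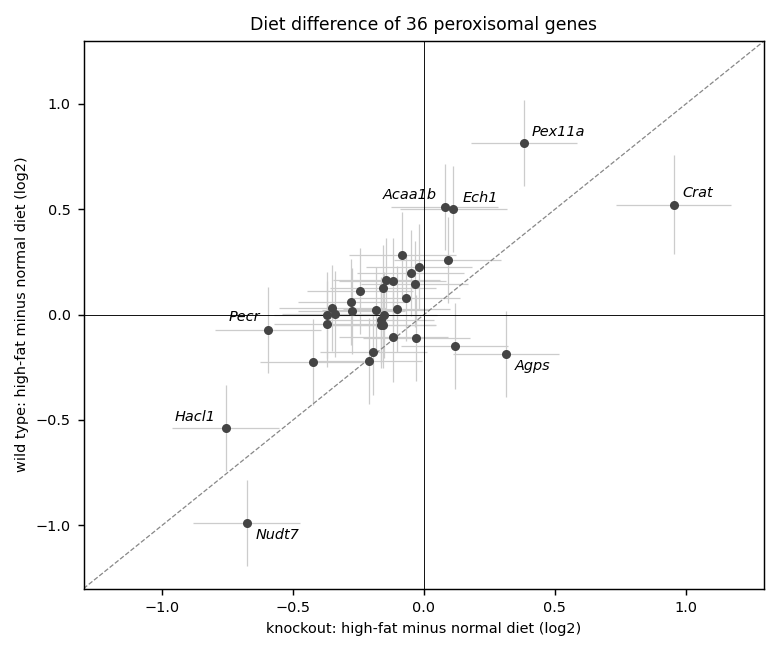
Each point is 1 of 36 peroxisomal genes, with the log2 difference of high-fat and normal diet in knockout on the x axis and in wild type on the y axis; bars are the scanner error and the dashed line marks equal differences. Of the 36 points 30 lie above the line, Pex11a, Acaa1b and Ech1 among them, and Crat, Agps and Nudt7 lie below it.

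The additive model of diet and genotype in limma, the only test that the design leaves, takes the interaction as error and has 1 residual degree of freedom. It called 0 of 14346 genes for diet and 0 for genotype, and so 0 of 37 peroxisomal genes. At an unadjusted p under 0.05 it held 4 of the 37 (10.8%) for diet and 4 (10.8%) for genotype, against 1425 (9.93%) and 1041 (7.26%) of all genes. For diet these were Nudt7 (-0.83, SE 0.14, limma adjusted p 0.44), Hacl1 (-0.65, SE 0.13, adjusted p 0.458), Crat (0.74, SE 0.17, adjusted p 0.461) and Pex11a (0.60, SE 0.17, adjusted p 0.493). For genotype they were Pex10 (0.46, SE 0.11, limma adjusted p 0.644), Nudt7 (-0.54, SE 0.14, adjusted p 0.649), Pex11a (0.58, SE 0.17, adjusted p 0.662) and Acaa1b (0.54, SE 0.17, adjusted p 0.685). Even Cat, at -3.78 with SE 0.12, had a limma adjusted p of 0.289 for genotype.

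Other genes of the organelle, from a list of 47, gave a wider range. In the knockout 0 of 45 rose with diet and 2 fell, Agxt, a glyoxylate transaminase, by 1.24 and Pmvk, of isoprenoid synthesis, by 1.13, and the median was -0.11 (Dhrs4, nearest to it, -0.12). In wild type 4 of 44 rose with diet: the acyl-CoA thioesterases Acot3 by 2.43 ± 0.21 and Acot4 by 1.15 ± 0.20, the acyltransferase Acnat2 by 1.29 ± 0.20, and Hao2, a hydroxy acid oxidase, at least 7.02-fold. There Pmvk fell by 1.37, and the median was 0.08 (Fis1). Between genotypes on high-fat diet Agxt fell by 1.12 and no gene of 45 rose (median -0.13, Fis1 -0.13). On normal diet Acot3 rose by 1.98 ± 0.21 and Hao2 at least 5.92-fold in the knockout, and none of 44 fell (median 0.10, Paox). Acot3 stood at 1.21 on the knockout high-fat array, 0.31 on the knockout normal array, 0.76 on the high-fat wild-type array and -1.67 on the normal-diet wild-type array, the same lowest array as Pex11a and Acaa1b.

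PPARalpha targets that lie outside the peroxisome were set beside them, 33 genes in all. The list also holds Ppara itself and Ppargc1a. For diet in the knockout 5 rose and 0 fell (median 0.12, Hadhb): Fgf21, a liver hormone of fasting, by 2.67 ± 0.21, the lipid droplet protein Cidec by 1.96 ± 0.20, Pdk4 by 1.16, Acot2 by 1.13 and Vnn1 by 1.04. In wild type 9 rose and 0 fell (median 0.52), led by the omega-hydroxylase Cyp4a14 (4.13 ± 0.20), Cidec (3.32 ± 0.20), Fgf21 (2.13 ± 0.21), Vnn1 (1.88), the fatty acid transporter Cd36 (1.85) and Cyp4a10 (1.70). Between genotypes on high-fat diet Cidec alone rose, by 1.27 ± 0.20 (median -0.09, Acot1). On normal diet 7 rose in the knockout and 0 fell (median 0.30, Slc25a20), led by Cyp4a14 (2.98 ± 0.20), Cidec (2.63 ± 0.20), Cd36 (1.51), Cyp4a10 and Cyp4a31 (1.35 each) and Vnn1 (1.23). The peroxisomal medians in the same order were -0.15, 0.02, -0.06 and 0.13. The wild-type normal liver, lowest for Pex11a, Acaa1b and Acot3, was also the lowest for Cyp4a14. Cyp4a14 stood at 4.75 on the knockout high-fat array, 4.46 on the knockout normal array, 5.60 on the high-fat wild-type array and 1.47 on the normal-diet wild-type array. Not all 33 targets had that order: Angptl4 (6.29), Fabp1 (8.99) and Ppargc1a (0.13) were highest on the wild-type normal array.

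**Figure D4:**
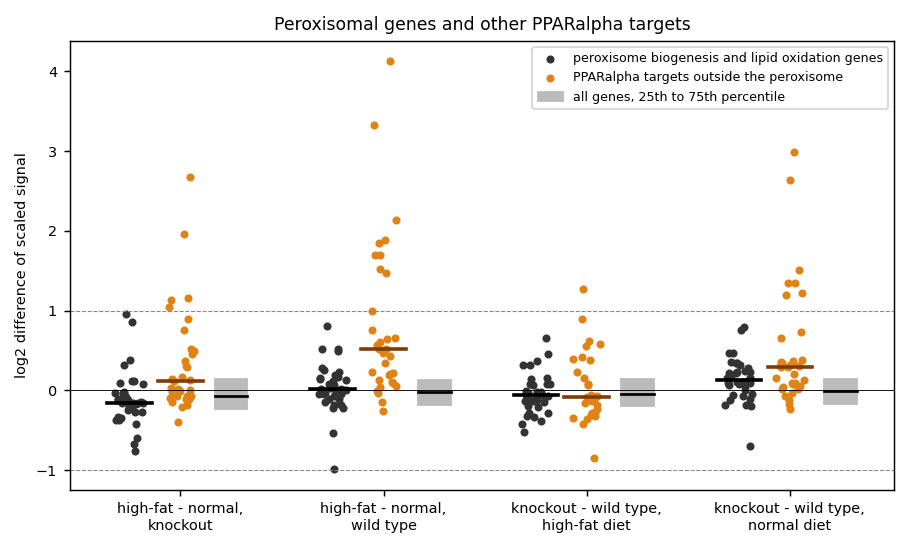
For 4 comparisons, dots are the log2 differences of peroxisome biogenesis and lipid oxidation genes (black) and of 33 PPARalpha targets outside the peroxisome (orange) well above background on both arrays, bars are medians, grey boxes the 25th to 75th percentile of all genes and dashed lines 2-fold. The PPARalpha targets have medians of 0.12, 0.52, -0.09 and 0.30 from left to right and reach 4.13. The plotted peroxisomal genes have medians of -0.15, 0.02, -0.06 and 0.13 and stay within 2-fold. Abcd2, at least 5.83-fold higher for diet in wild type and at least 2.94-fold higher for genotype on normal diet, is not plotted in those comparisons. After quantile normalization the peroxisomal median was -0.01 for diet in the knockout and 0.07 for genotype on high-fat diet.

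Of the promoter windows shown above, those of Acaa1b and Acaa1a each held 4 matches to CCAAT, of which 2 overlap in Acaa1b, and those of Pex11a and Nudt7 held none. Over the 31 genes of the set with a window, 13 (41.9%) held CCAAT on either strand, against 41.1% of 27025 genes. The PPARalpha response element in its direct-repeat form AGGTCANAGGTCA, searched on both strands, was in 0 of the 31 genes exactly or with 1 mismatch, against 0.0481% and 0.644% of all genes. With 2 mismatches it was in Acox2 (3.23%), against 4.40% of all genes. Its single core AGGTCA, which lies within the repeat, was in Pex11g, Phyh, Slc27a2 and Scp2 (12.9%), against 18.1%. A match is a description of these letters only, and their absence says only that they are not in these windows.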

How the data were processed

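The deposited scanner files hold intensity values from Feature Extraction 11.5.1.1 with a probe grid on mouse build mm9, per the file headers, and GeneSpring GX 7.3 was used by the authors before they compared groups, per the labels' design text. The value table deposited for the series also holds intensity, linear and uncentred: 99.8% of its values lay within 1% of the processed signal, and its column medians were 89.2, 72.4, 75.9 and 79.9 for knockout high-fat, knockout normal, wild-type high-fat and wild-type normal. Its direction does not apply to 1 colour.

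From the background-subtracted processed signal, control spots and outlier-flagged spots (98 to 186 per array, kept where no other spot of the probe was left) were left out, spots were averaged as log2 and each array's 75th percentile was subtracted. RefSeq accessions of assembly GRCm38.p6 named 27508 probes, and 11921 stayed unnamed. A gene is its brightest probe. Of the genes described, 6 have 2 probes. The arrays share 1 slide and 1 scan, which leaves no batch to fit. Where a probe was well above background on 1 array only, the other took the lowest signal well above background, or its own if higher, giving an "at least" bound. The additive fit took genes detected (well above background) on 2 or more arrays and used limma 3.58.1 (R 4.3.3), with Benjamini-Hochberg adjustment at 0.05, and was tested on simulated data. Other steps ran in Python 3.11.15. Alternatives were median scaling, quantile and cyclic loess normalization, normexp with offset 50 (on median spot signals, as mean signals were not used here), the value table, the mean of all probes, a detection filter and a 1.5-fold size. Protein and probe sequences were not used here, so the planned check of targeting signals was not run.

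The genes, lists and tests were chosen with earlier results of these data known. All listed genes are named, with Cat; of the other peroxisomal genes and the PPARalpha targets, up to 6 called per comparison and, except where it is not reported here, the gene nearest the list's median; of marker lists, up to 3 with the widest difference. Levels of other genes were added after their values were seen.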

Additional observations from a re-analysis of the deposited data

How the results depend on the processing

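No paired analysis was possible because each group has 1 array. For the same reason no replicate could be left out, and a slide or scan block could not be fitted. Over 1290 values of single peroxisomal genes under an alternative, 1219 kept their side of 2-fold and, if short of it, moved by no more than the scanner error, 65 moved by more, 3 came to pass 2-fold, 3 no longer passed it, and no called value changed direction. The number of peroxisomal genes past the size for diet in wild type was 1, and became 2 with the mean of all probes (Nudt7 at -1.03 joined), 0 with probes well above background on all 4 arrays and 3 at 1.5-fold. For diet in the knockout it was 0, and 5 at 1.5-fold. For genotype on high-fat diet it was 0, and 1 at 1.5-fold. For genotype on normal diet it was 1, and 0 with normexp (Abcd2 bound 0.54), 0 with probes well above background on all 4 arrays and 4 at 1.5-fold. Between the knockout high-fat and wild-type normal livers it was 4, and 2 with normexp (Abcd2 bound 0.96, Crat 0.73), 3 with probes well above background on all 4 arrays, 5 after quantile normalization or cyclic loess (Acaa1b joined) and 6 at 1.5-fold. In limma, median scaling alone, where the prior degrees of freedom became infinite, called 377 genes for diet and 219 for genotype in place of 0 and 0, with 1 peroxisomal gene for each, Abcd2 (limma adjusted p 5.51e-09 and 0.0154); under the other settings limma called 0. Median scaling moved the median of all genes by -0.11 for diet in the knockout and by 0.14 for genotype on normal diet, so the numbers above and below 0 moved with it. The number of arrays, and dim signal for Abcd2 and Crat, limit precision. The cause of these shifts was not tested.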

Other observations

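Cat lies on chromosome 2, where 5 of the peroxisomal genes also lie. Their knockout minus wild-type differences on high-fat and on normal diet were 0.65 and 0.22 for Crat, 0.31 and -0.19 for Agps, 0.10 and 0.47 for Pex16, -0.05 and 0.10 for Slc27a2 and -0.52 and -0.19 for Phyh. Ppara itself, which is on the list of PPARalpha targets above, had the same lowest array as Pex11a and Acaa1b. It stood at 5.31 on the knockout high-fat array, 5.18 on the knockout normal array, 5.42 on the high-fat wild-type array and 4.82 on the normal-diet wild-type array.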
